A study of Mus musculus with 23 samples.

Results

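In mouse embryonic stem cells moved into FA, a differentiation medium that holds FGF2 and Activin A, a rule took 26 of 53607 gene rows. These lost most of their RNA when RAS was deleted, both with ERF wild type and in cells labelled ERF knockout. They are not all of the genes that lost RNA, and their number depends on the cutoffs of the rule. A gene was taken when log2 of its group mean plus 1, in CPM (counts scaled to a library total of 1000000), was at least 1.5 higher with RAS present than with RAS deleted in each ERF genotype. This passed 32 genes, of which 6 were set aside by name: Spry4, Egr1, Etv4, Dusp6 and Dusp4, of families known to respond to the kinase ERK, and Cubn, an endoderm receptor. The 11 libraries in FA therefore chose the members, and every value of a member in FA below is a description without a test. The 12 libraries in 2iL took no part in the choice, and comparisons among them were tested.

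RAS proteins are small GTPases that pass signals from growth factor receptors, among them FGF receptors, to the kinase ERK. ERK acts on transcription partly through factors of the ETS family, and ERF is an ETS repressor that ERK phosphorylation removes from the nucleus. In pluripotent cells FGF and ERK signalling favours the exit from the naive state, and in the early embryo it also favours primitive endoderm, the lineage marked by Gata6, Gata4, Sox7 and Dab2.

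All 23 libraries came from 1 line background, Raslox/lox, which by label carries H-Ras-/-, N-Ras-/-, another floxed Ras gene and Ubiq-CreERT2, a Cre recombinase that 4-hydroxytamoxifen switches on. Libraries called RAS deleted had 4-hydroxytamoxifen for 6 days, and those called RAS present had none, so effects of the drug itself and of losing RAS cannot be told apart. ERF was wild type or knockout by label, and the number of knockout clones is not given in the sources used here. Cells stayed in 2iL, with the MEK inhibitor PD0325901, the GSK3 inhibitor CHIR99021 and LIF, or spent 48 h in FA, with 12 ng/ml FGF2, 20 ng/ml Activin A and 1% KOSR, a serum replacement. These 3 factors gave 8 groups of 3 libraries each, apart from 2 libraries in the FA group that had RAS and ERF wild type. The labels do not say that libraries of a group are separate cultures, so p-values measure only the spread between these libraries.

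Library totals ran from 16.2 to 29.9 M counts. RNA of Erf was present under the knockout label: in 2iL with RAS present it ran from 91.9 to 111 CPM with ERF wild type and from 125 to 174 CPM with the knockout label. In FA it ran from 71.8 to 94.6 CPM and from 67.9 to 85.4 CPM with RAS present, and was lower under the knockout label without overlap where RAS was deleted (89.7 to 98.2 CPM against 66.8 to 89.4 CPM). Hras and Nras, null by label, were counted in every group, Hras at 15.1 to 34.2 CPM and Nras at 6.71 to 68.1 CPM, a range that lay within the 3 RAS-deleted libraries of the knockout label in 2iL. All genotypes are therefore given as labelled. In replicate 1 of each of the 4 ERF wild-type groups the median gene on chromosome 8 stood 0.24 to 0.36 higher on the log2 scale than the mean of all other libraries, against -0.09 to -0.01 in the remaining libraries, and no member lies on that chromosome. By the same measure chromosome 11, which holds Lhx1, Cldn7 and B4galnt2, stood 0.14 and 0.11 higher in replicate 1 of the knockout-label groups in 2iL with RAS present and with RAS deleted, and 0.07 higher in replicate 1 of the one in FA with RAS present. Chromosome X, which holds Amot, stood 0.11 higher in replicates 2 and 3 of the FA group with RAS deleted and ERF wild type. Naive markers (10 genes, among them Klf4, Esrrb and Zfp42) summed to 1696 to 2719 CPM in the FA libraries with RAS deleted and ERF wild type. In the other 3 FA groups the same sum ran from 351 to 487 CPM, and in 2iL from 4048 to 4795 CPM. Whether this difference in state has a part in the members' loss was not tested.

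All 26 members are protein coding, lie on 14 chromosomes and passed the low-count filter of the test, which kept 20372 genes over all groups. With the filter set on the 2iL groups compared alone, Sox7, Dkk1, Lhx1 and 2610528J11Rik were not tested in any comparison, nor Epha1 and Nt5e for RAS deletion with ERF wild type, so these entered the 2iL tests below through libraries outside the comparison. With ERF wild type the RAS difference had a median of 2.64 on the log2 scale (range 1.52 to 4.21), and with the knockout label a median of 1.83 (range 1.52 to 3.29). The medians over 15913 genes with a mean of at least 1 CPM were -0.02 and 0.01. In both genotypes the RAS-present and RAS-deleted libraries did not overlap for any of the 26 members, where 28.5% and 27.7% of those 15913 genes were higher with RAS without overlap. The rule chose on the group means of these same libraries, which favours this outcome, and nothing is read from it. The threshold cut through a continuum: B4galnt2, Hoxa10 and Arhgef5 lay just inside with a smaller difference of 1.52 each, and Bspry (1.497), F2rl1 (1.49) and Svop (1.48) just outside.

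**Figure D1:**
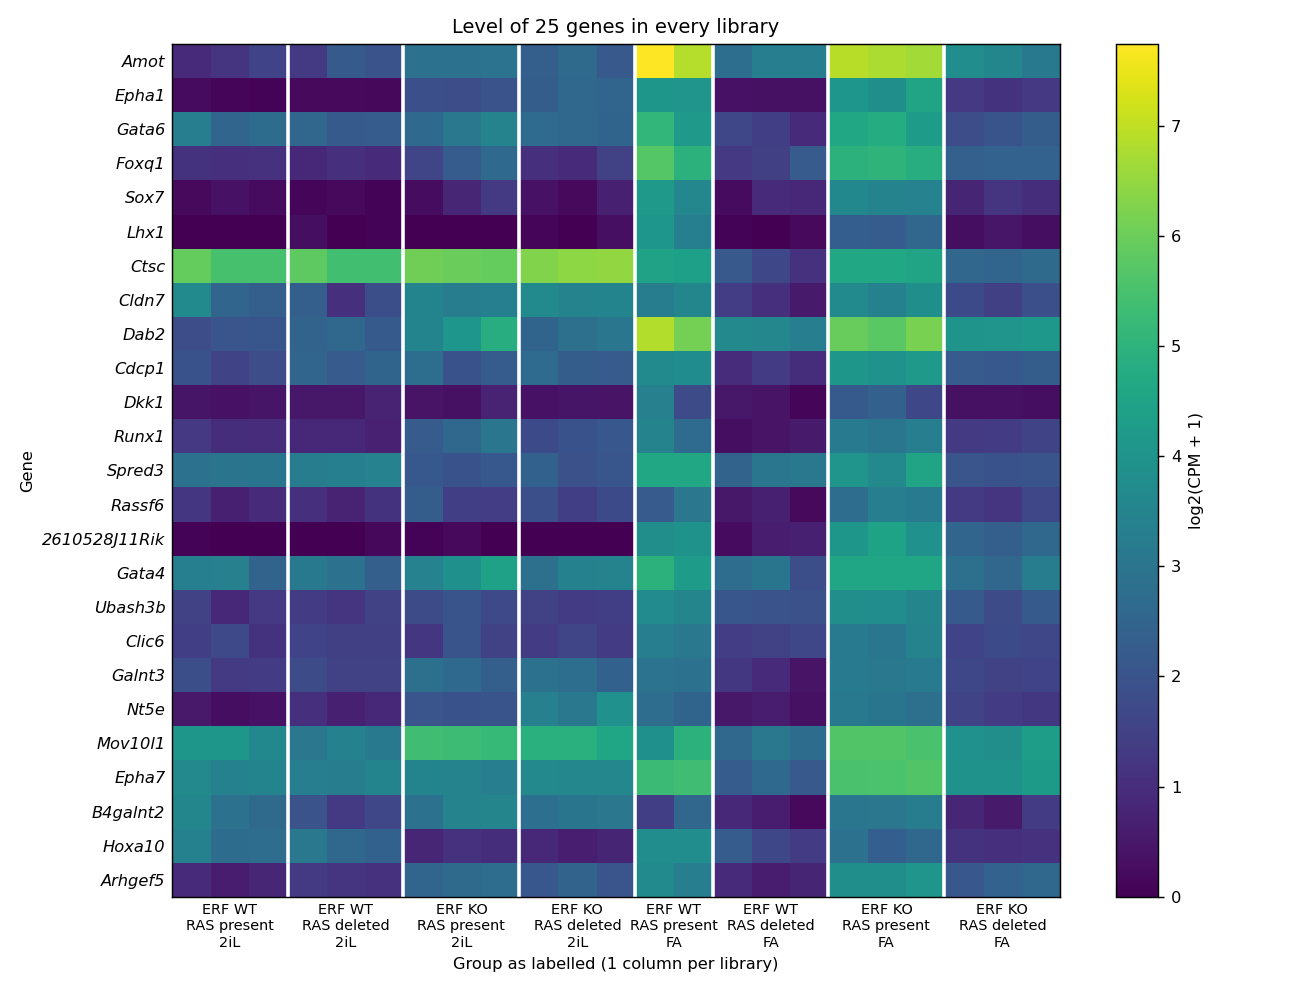
Level of 25 members (rows) in each of the 23 libraries (columns, grouped by ERF label, RAS state and medium), as log2(CPM + 1). In FA the RAS-present libraries are brighter than the RAS-deleted ones in every row, while Ctsc and Mov10l1 are also high in 2iL.

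Promoter sequence is shown for 4 members that changed with the ERF label in 2iL and whose window held a short motif of ETS or TEAD factors: Cldn7 and Runx1, which held both, and Hoxa10 and Epha1, which fell and rose most. Dab2 (ETS) and B4galnt2 (TEAD) also changed and held a match, and are not printed. RefSeq start sites on GRCm38.p6 gave 26 windows of 250 bases before the start for 20 of the 26 members. Gata6, Foxq1, Sox7, Gata4 and Clic6 were among those not matched. Windows were searched on both strands for ETS (CCGGAA), AP-1 (TGANTCA), the GATA family (AGATAA), TEAD (GGAATG) and the CArG box, and the ETS and TEAD letters can share up to 4 bases. Capitals mark matches on either strand, and each sequence runs 5′ to 3′ on the gene's strand.
Cldn7, chr11:69964529-69964778, plus strand: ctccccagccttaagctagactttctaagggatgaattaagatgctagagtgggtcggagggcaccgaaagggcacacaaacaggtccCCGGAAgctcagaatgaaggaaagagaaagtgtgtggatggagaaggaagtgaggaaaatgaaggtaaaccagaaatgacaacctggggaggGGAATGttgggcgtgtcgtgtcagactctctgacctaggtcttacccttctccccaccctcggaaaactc
Runx1, chr16:92697330-92697579, minus strand: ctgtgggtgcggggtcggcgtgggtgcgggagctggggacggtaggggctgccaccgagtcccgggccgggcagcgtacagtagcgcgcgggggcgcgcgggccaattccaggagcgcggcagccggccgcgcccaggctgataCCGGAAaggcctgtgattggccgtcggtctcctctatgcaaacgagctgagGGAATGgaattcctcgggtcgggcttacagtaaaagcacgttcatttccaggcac
Hoxa10, chr6:52234940-52235189, minus strand: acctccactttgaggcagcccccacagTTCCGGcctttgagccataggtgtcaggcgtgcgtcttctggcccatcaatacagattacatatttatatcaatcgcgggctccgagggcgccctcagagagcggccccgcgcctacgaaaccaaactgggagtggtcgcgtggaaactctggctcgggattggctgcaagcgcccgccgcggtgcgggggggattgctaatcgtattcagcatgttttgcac
Epha1, chr6:42373269-42373518, minus strand: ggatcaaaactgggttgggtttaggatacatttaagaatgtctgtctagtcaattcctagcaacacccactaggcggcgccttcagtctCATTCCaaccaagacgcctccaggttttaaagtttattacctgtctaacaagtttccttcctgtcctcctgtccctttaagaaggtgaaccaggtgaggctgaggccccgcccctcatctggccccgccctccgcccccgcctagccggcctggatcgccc
In the Cldn7 window printed, the ETS match began 162 bases and the TEAD match 70 bases before the start site, and a window of another Cldn7 start site held an ETS match 65 bases before it. In the Runx1 window printed the ETS and TEAD matches began 106 and 55 bases before the start site. In the Hoxa10 window printed the ETS match began 223 bases before the start site. A window of another start site of Runx1, and of Hoxa10, held none of the motifs searched. In Epha1 the TEAD match began 161 bases before the start site. The ETS letters were in 5 of 26 windows of members (19.2%) and in 12.0% of 32851 windows of all genes. The 5 windows belong to 4 of 20 members: Cldn7, Dab2, Hoxa10 and Runx1. The ETS letters hold a CG, and member windows were richer in GC (median 60% against 52.4%) and in CG dinucleotides (median 9.5 against 6). The part of this composition in the shares was not tested. TEAD letters were in 5 member windows (19.2% against 12.6%), GATA letters in 2 (7.69% against 9.99%), AP-1 letters in 1 (3.85% against 6.75%) and the CArG box in 0 (against 1.47%). These counts describe letters in a short window and show no binding.

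Transcription factors made up 8 members, and with ERF wild type they kept a median of 5.13% of their RAS-present level after RAS deletion (range 0.537 to 21.3%). With the ERF knockout label they kept a median of 14.1% (range 6.42 to 28.8%). Gata6, a GATA factor that specifies primitive endoderm, stood at 33.7 and 17.3 CPM with RAS and at 2.14, 1.71 and 0.95 CPM without it when ERF was wild type. Under the knockout label it stood at 23.96, 26.9 and 18.4 CPM with RAS and at 2.57, 3.05 and 3.87 CPM without it. The ERF genotypes overlapped in the level with RAS, and every RAS-deleted library of the knockout label lay above every one of the wild type. Gata4, its partner in extraembryonic endoderm, was at 30.4 and 18.2 CPM against 5.84, 7.07 and 2.61 CPM with ERF wild type, and at 22.4, 22.7 and 23.1 CPM against 6.19, 4.82 and 8.68 CPM with the knockout label. Gata4 kept the largest share of its level among these 8 genes in both genotypes.

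Sox7, an SRY-box factor of parietal endoderm, was at 16.8 and 10.9 CPM against 0.173, 0.939 and 0.807 CPM with ERF wild type, and at 11.4, 10.1 and 9.75 CPM against 0.741, 1.28 and 1.04 CPM with the knockout label. Lhx1, a LIM-homeodomain factor of visceral endoderm and organizer tissue, was at 15.8 and 9.08 CPM with RAS and ERF wild type and had only 1, 0 and 3 counts in the libraries without RAS. Under the knockout label Lhx1 was at 3.98, 3.72 and 4.93 CPM with RAS and at 0.218, 0.375 and 0.218 CPM without it. Lhx1 had the lowest ERF difference in FA among the members, -1.37 on the log2 scale (knockout label minus wild type, RAS present).

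Foxq1, a forkhead factor, was at 50.9 and 30.7 CPM against 1.44, 1.77 and 3.70 CPM with ERF wild type, and at 30.3, 31.5 and 27.0 CPM against 4.14, 4.39 and 4.42 CPM with the knockout label. Runx1, a Runt-domain factor best known from blood formation, was at 10.0 and 5.54 CPM against 0.231, 0.331 and 0.475 CPM with ERF wild type. Under the knockout label Runx1 was at 8.30, 7.27 and 8.83 CPM against 1.48, 1.55 and 2.02 CPM, so that the level with RAS overlapped between genotypes and the level without RAS did not. Hoxa10, a HOX factor of posterior patterning, went the other way with ERF: it was at 12.8 and 12.9 CPM against 3.76, 2.21 and 1.61 CPM with ERF wild type, and at 6.39, 4.01 and 5.15 CPM against 1.18, 1.12 and 1.15 CPM with the knockout label. Both the RAS-present and the RAS-deleted libraries of Hoxa10 were lower under the knockout label without overlap.

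Surface proteins made up 5 members, with a median of 9.81% of the level left after RAS deletion with ERF wild type and 22.9% with the knockout label. Epha1, an Eph receptor tyrosine kinase, was at 15.99 and 15.3 CPM against 0.289, 0.276 and 0.285 CPM with ERF wild type. Under the knockout label Epha1 was at 15.8, 13.4 and 22.1 CPM with RAS and at 1.44, 1.18 and 1.42 CPM without it. Its level with RAS overlapped between the genotypes, and its level without RAS was higher in all 3 knockout-label libraries. Epha7, a second Eph receptor, was at 37.5 and 40.4 CPM against 3.81, 5.24 and 3.51 CPM with ERF wild type, and at 44.9, 46.1 and 48.6 CPM against 14.3, 14.7 and 17.5 CPM with the knockout label. Epha7 kept 10.8% of its level with ERF wild type and 33.3% with the knockout label, the largest share of all 26 members in the latter.

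Cldn7, a claudin of epithelial tight junctions, was at 8.58 and 10.8 CPM against 1.68, 1.10 and 0.475 CPM with ERF wild type, and at 11.6, 9.67 and 13.3 CPM against 2.36, 1.77 and 2.73 CPM with the knockout label. Cdcp1, a transmembrane glycoprotein phosphorylated by SRC family kinases, was at 11.7 and 12.6 CPM against 0.982, 1.60 and 0.997 CPM with ERF wild type, and at 15.9, 14.4 and 17.2 CPM against 3.71, 3.37 and 3.82 CPM with the knockout label. Nt5e, the ecto-5′-nucleotidase CD73 that makes adenosine outside the cell, was at 5.80 and 4.69 CPM against 0.405, 0.497 and 0.285 CPM with ERF wild type, and at 7.75, 7.10 and 6.18 CPM against 2.01, 1.61 and 1.36 CPM with the knockout label. For these 3 surface genes too the RAS-deleted libraries of the knockout label lay above those of the wild type without overlap.

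Proteins of intracellular or secreted signalling made up 7 members. Amot, angiomotin, a junctional scaffold that binds YAP in the Hippo pathway, showed the largest RAS difference of all members in both genotypes. It was at 213 and 116 CPM with RAS and at 5.95, 8.89 and 8.93 CPM without it when ERF was wild type. Under the knockout label Amot was at 119.9, 110.2 and 101 CPM with RAS and at 12.7, 10.8 and 7.75 CPM without it. Amot thus kept 4.82% and 9.43% of its level, and the genotypes overlapped both with and without RAS. Dab2, an endocytic adaptor required in visceral endoderm, was at 113 and 69.2 CPM against 11.4, 10.99 and 8.83 CPM with ERF wild type, and at 60.7, 53.7 and 71.2 CPM against 15.1, 15.4 and 16.3 CPM with the knockout label. On the length-scaled TPM values, Dab2 (mean 30.9 TPM) and Amot (24.9 TPM) had the highest levels of the members with RAS and ERF wild type in FA, and Nt5e (1.00 TPM) the lowest.

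Spred3, a Sprouty-related protein of the family that restrains RAS signalling, was at 24.04 and 24.1 CPM against 4.51, 7.29 and 7.50 CPM with ERF wild type, and at 15.4, 11.5 and 21.7 CPM against 3.14, 2.84 and 3.00 CPM with the knockout label. Spred3 was 1 of 3 members, with B4galnt2 and Ubash3b, whose RAS difference was not larger with ERF wild type. Rassf6, a Ras-association domain protein, was at 3.66 and 7.34 CPM against 0.405, 0.607 and 0.142 CPM with ERF wild type, and at 5.79, 8.98 and 8.07 CPM against 1.48, 1.23 and 2.13 CPM with the knockout label. Dkk1, a secreted inhibitor of Wnt co-receptors, was at 9.27 and 2.47 CPM against 0.405, 0.331 and 0.095 CPM with ERF wild type, and at 3.60, 4.23 and 2.17 CPM against 0.262, 0.268 and 0.218 CPM with the knockout label. The ratio of 3.76 between its RAS-present libraries with ERF wild type was the highest among the members. Ubash3b, a phosphatase that acts on tyrosine kinases, was at 12.2 and 10.5 CPM against 3.18, 2.93 and 2.75 CPM with ERF wild type, and at 13.3, 12.8 and 10.5 CPM against 3.58, 2.46 and 3.55 CPM with the knockout label. Its RAS differences of 1.65 in each genotype were the most alike of the 26. Arhgef5, an exchange factor for small GTPases, was at 12.1 and 8.84 CPM against 0.925, 0.497 and 0.76 CPM with ERF wild type, and at 13.6, 13.4 and 15.3 CPM against 3.27, 4.44 and 5.08 CPM with the knockout label.

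The remaining 6 members are enzymes and other proteins. Ctsc, the lysosomal protease cathepsin C, was at 20.9 and 19.6 CPM against 3.47, 2.21 and 1.14 CPM with ERF wild type, and at 23.7, 23.6 and 22.1 CPM against 4.88, 4.76 and 5.35 CPM with the knockout label. Galnt3, an enzyme that starts O-linked glycosylation, was at 6.73 and 6.56 CPM against 1.39, 0.939 and 0.332 CPM with ERF wild type, and at 8.41, 7.55 and 8.40 CPM against 2.22, 1.82 and 1.96 CPM with the knockout label. Clic6, of the chloride intracellular channel family, was at 9.02 and 7.58 CPM against 1.68, 1.82 and 2.14 CPM with ERF wild type, and at 8.41, 7.15 and 10.1 CPM against 1.92, 2.36 and 2.13 CPM with the knockout label. For Clic6 the ERF genotypes overlapped both with and without RAS. Mov10l1, an RNA helicase of the germline piRNA pathway, was at 13.8 and 30.3 CPM against 5.14, 7.51 and 5.60 CPM with ERF wild type, and at 48.5, 48.98 and 44.5 CPM against 14.2, 13.3 and 19.2 CPM with the knockout label. It kept the most with ERF wild type, 27.6% of its level, and had the highest ERF difference in FA among the members with RAS present, 1.07 on the log2 scale.

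B4galnt2, a glycosyltransferase, was at 1.71 and 4.93 CPM against 0.809, 0.552 and 0.142 CPM with ERF wild type, and at 7.15, 7.44 and 8.56 CPM against 0.785, 0.482 and 1.53 CPM with the knockout label. Under the knockout label its level with RAS was higher in every library, and its RAS difference was 2.17 against 1.52 with ERF wild type, the widest gap in that direction. The opposite extreme was 2610528J11Rik, with a RAS difference of 3.39 with ERF wild type and 1.70 with the knockout label. It was at 13.3 and 14.7 CPM against 0.173, 0.497 and 0.617 CPM with ERF wild type, and at 16.3, 21.7 and 14.1 CPM against 4.75, 4.07 and 5.08 CPM with the knockout label.

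The 2 RAS differences were then set side by side, as a description with no test. The RAS difference was larger with ERF wild type in 23 of 26 members. The gap was at least 1 on the log2 scale in 7 and under 0.5 in 8. Over all gene rows, 372 passed the threshold of the rule with ERF wild type and 71 with the knockout label. Larger RAS differences with ERF wild type are therefore not particular to the members. A median of 8.67% of the RAS-present level was left with ERF wild type and 21.4% with the knockout label, and at most 10% was left in 14 and in 6 members. Without RAS, 16 members were higher and 2 lower under the knockout label without overlap, where 28.5% and 27.3% of the 15913 genes were. With RAS present, 8 were higher and 4 lower, where 24.7% and 18% were. These counts come from the libraries that chose the members, and carry no test.

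**Figure D2:**
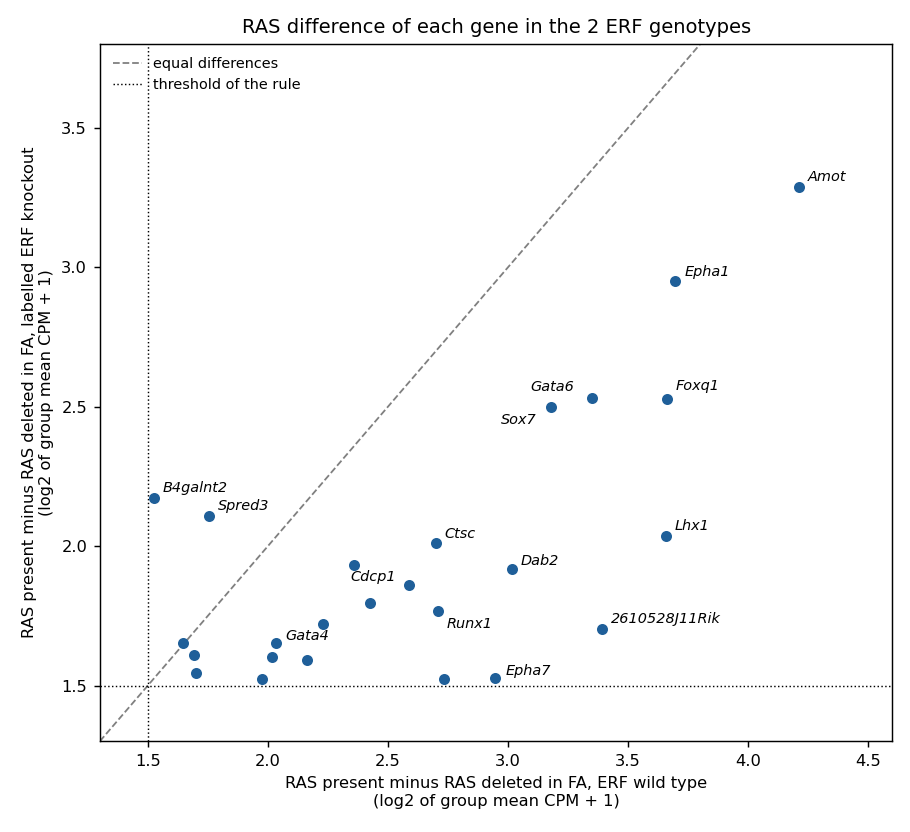
RAS-present minus RAS-deleted difference in FA of 25 members, as log2 of group mean CPM plus 1, with ERF wild type (horizontal axis) and with the ERF knockout label (vertical axis). The dotted lines are the threshold of 1.5 and the dashed line marks equal differences; 22 of these lie below it, and Spred3 and B4galnt2 stand above it.

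The 2 reference libraries in FA (RAS present, ERF wild type) were not alike. Replicate 1 was over 1.5 times replicate 2 for 10 members, among them Amot, Gata6, Foxq1, Sox7, Lhx1, Dab2, Dkk1, Runx1 and Gata4, and was below replicate 2 by as much for Rassf6, Mov10l1 and B4galnt2. The other 13 members were within 1.5 times. Of the endoderm list chosen for this work (10 genes, of which Gata4, Gata6, Sox7 and Dab2 are members), the 6 genes that are no members had a summed level of 506 CPM in replicate 1 and 218 CPM in replicate 2. The sum was 5.84 to 6.41 CPM without RAS and with ERF wild type, 128 to 207 CPM with RAS under the knockout label, and 12.6 to 22.05 CPM without RAS under that label.

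With RAS present most of that sum was Cubn, the endocytic receptor cubilin, with means of 330, 0.642, 136 and 5.83 CPM in the same order of groups. Pdgfra, a receptor of primitive endoderm, had means of 22.1, 3.94, 14.3 and 7.81 CPM. Afp and Ttr, secreted products of mature visceral endoderm, had means of at most 0.353 CPM in every group. In bulk libraries fewer cells of a type and less RNA per cell cannot be told apart, and the part of endoderm-like cells in the members' loss was not tested.

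**Figure D3:**
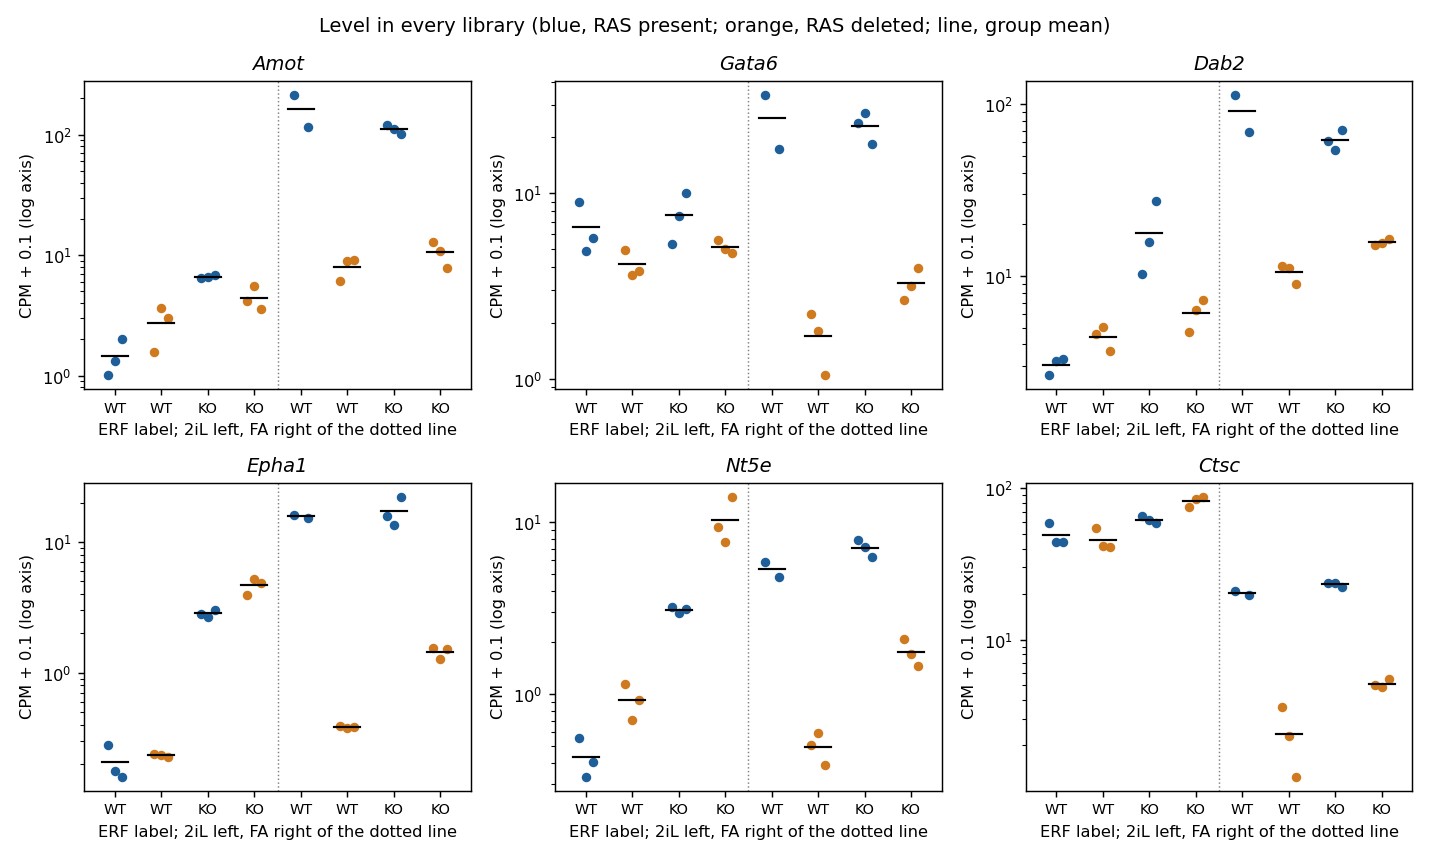
Level of 6 members in every library as CPM plus 0.1 on a log axis (points, blue with RAS present and orange with RAS deleted; lines, group means; the ERF label is given below each group, 2iL to the left of the dotted line and FA to the right). In FA orange lies below blue in all 6, whereas in 2iL Epha1 and Nt5e follow the ERF label and Ctsc is above its FA level in every group.

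Most members were higher in FA than in 2iL when RAS was present. With RAS present and ERF wild type, the FA minus 2iL difference had a median of 1.99 on the log2 scale over the members and 0.02 over the 15913 genes, and 22 members were higher and 2 lower in FA without overlap (background 32.7% and 31.3%). Where RAS was deleted with ERF wild type, the members' median was -0.39, and 7 were higher and 13 lower without overlap (background 27.9% and 27.2%). Under the ERF knockout label the medians were 1.64 with RAS and -0.15 without it, with 23 higher and 1 lower (background 32.5% and 31.1%) and 8 higher and 10 lower (background 38% and 32.9%). These contrasts use the libraries that chose the members, so they are descriptions.

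Levels in 2iL showed that the members do not share 1 starting point. With RAS and ERF wild type in 2iL, Ctsc was at 59.4, 44.3 and 44.0 CPM, above its level in FA. Lhx1 had 0 counts in each library and 2610528J11Rik had 1 count over all 3. In that group 8 members had a mean under 1 CPM, and the median member was at 1.79 CPM against 13.4 CPM in FA. Amot rose most with FA, from 0.912, 1.23 and 1.93 CPM, a difference of 6.13 on the log2 scale with ERF wild type. With RAS deleted, only Amot (1.29) and Dab2 (1.10) were at least 1 higher in FA than in 2iL with ERF wild type, while Ctsc was lower by 3.84 (log2 difference -3.84).

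The next comparison asked whether RAS deletion changed the members in 2iL, where the MEK inhibitor already blocks signalling from RAS to ERK. Calls needed at least a 2-fold change together with an adjusted p (Benjamini-Hochberg, over all 20372 genes) below 0.05. With ERF wild type, 1.2% of genes were called (0.692% higher and 0.506% lower), and 2 of 26 members, both lower: B4galnt2 and Cldn7. B4galnt2 fell from 10.8, 6.55 and 5.36 CPM to 2.94, 1.47 and 2.15 CPM, and the groups did not overlap (log2 fold change -1.82, SE 0.41, edgeR adjusted p 0.0135). Cldn7 fell from 12.1, 4.70 and 4.03 CPM to 4.06, 1.07 and 2.60 CPM, and the groups overlapped at 4.06 and 4.03 CPM (log2 fold change -1.47, SE 0.41, edgeR adjusted p 0.0423). Neither was called without replicate 1 of the RAS-present group, or without replicate 2 or 3 of the RAS-deleted group. Cldn7 was also lost when only the groups compared were fitted, and was called with the replicate number as a block in that fit. The median member changed by 0.03, with 13 members up and 13 down, a sign that depends on the fit. The median was -0.15 over the 20 members tested with only the groups compared (8 up and 12 down). Without replicate 1 of the RAS-present group it was 0.32 (16 up and 10 down). In the same libraries 3 markers of a 2-cell-like state summed to 7.40 to 13.5 CPM with RAS and to 44.6 to 60.5 CPM without it. The part of this shift in the members' values was not tested.

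In 2iL cells labelled ERF knockout, RAS deletion called 0.211% of genes (0.0687% higher and 0.142% lower) and 2 members, in opposite directions. Nt5e rose from 3.10, 2.85 and 3.01 CPM to 9.26, 7.55 and 13.9 CPM (log2 fold change 1.83, SE 0.23, edgeR adjusted p 0.000799). This is the reverse of its loss in FA, and it was called under each of 13 alternative settings, with values from 1.53 to 2.00. Dab2 fell from 10.2, 15.6 and 27.3 CPM to 4.59, 6.21 and 7.19 CPM (log2 fold change -1.51, SE 0.29, edgeR adjusted p 0.0164). The 6 endoderm markers that are no members were lower in the same RAS-deleted libraries without overlap, with sums of 21.5 to 56.0 CPM against 8.89 to 14.8 CPM, and their part in the fall of Dab2 was not tested. The Dab2 call was lost when only the groups compared were fitted and without replicate 1 or 2 of the RAS-deleted group. Epha1 had an adjusted p of 0.0420 by edgeR with a log2 fold change of 0.79, under the 2-fold minimum. The median member changed by -0.38, with 9 up and 17 down. With only the groups compared, 75 genes and 2 members were called in place of 43 genes and 2 members, and with the replicate number as a block in that fit 207 genes and 3 members. The members called were Nt5e and Foxq1 without the block, and Nt5e, Foxq1 and Dab2 with it.

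The ERF knockout label moved more members in 2iL than RAS deletion did by count of calls, and the difference between these counts was not tested. Over all genes the label also called more, 9.72% with RAS present and 13% with RAS deleted. RAS deletion called 1.2% with ERF wild type and 0.211% with the knockout label. The order of the counts is therefore not particular to the members. With RAS present, 13 of 26 members were called, 11 higher and 2 lower, with Sox7 among the 11 under the limit given below. Of all genes 9.72% were called (5.2% higher and 4.52% lower). When only the groups compared were filtered and fitted, 12 of 22 members were called, 10 higher and 2 lower, and 1549 of 16879 genes. In the fit over all groups the median member was higher by 0.87 on the log2 scale, against -0.00 over all genes tested. Epha1 rose most, from 4, 1 and 1 counts to 42, 36 and 43 counts (2.72, 2.57 and 2.94 CPM), so its fold rests on few reads in the wild type (log2 fold change 4.46, SE 0.33, edgeR adjusted p 1.68e-09). The ratio of its summed counts per library size was 23.6, with an exact 95% interval of 10.52 to 65.5 for counting error only. Nt5e rose from 0.456, 0.231 and 0.301 CPM to 3.10, 2.85 and 3.01 CPM (3.06, SE 0.32, edgeR adjusted p 1.83e-07). Arhgef5 rose from 0.912, 0.54 and 0.783 CPM to 4.72, 5.35 and 5.82 CPM (2.75, SE 0.25, edgeR adjusted p 3e-08). For these 3 genes the knockout-label libraries lay close together and far above the wild type.

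Of the 4 members on the endoderm list, Dab2 rose clear of the wild type, with a wide spread. It went from 2.55, 3.08 and 3.19 CPM to 10.2, 15.6 and 27.3 CPM (2.58, SE 0.31, edgeR adjusted p 6.49e-06). Sox7 went from 3, 4 and 3 counts to 3, 11 and 22 counts (2.01, SE 0.65, edgeR adjusted p 0.0252), with overlap. It entered the test only through libraries outside the comparison, so its call is not read as a rise. Foxq1, which is not on that list, rose from 1.18, 1.08 and 1.14 CPM to 2.07, 3.78 and 5.20 CPM (1.66, SE 0.36, edgeR adjusted p 0.00147). In Dab2, Foxq1 and Sox7 knockout-label replicate 3 was highest and replicate 1 lowest. The order was the same in Gata6, Gata4, Runx1 and B4galnt2, and with little spread in Amot and Arhgef5. The 6 endoderm markers that are no members summed to 21.5 to 56.0 CPM in this group and to 4.09 to 8.29 CPM with ERF wild type, and their part in the rise was not tested. Other marker sums moved without overlap too. The 3 markers of a 2-cell-like state were higher (29.5 to 90.6 CPM against 7.40 to 13.5 CPM with ERF wild type). Sums of trophoblast, mesoderm and definitive endoderm, primed and neural markers were lower, and the part of these shifts was not tested. Gata6 and Gata4 did not pass the test (0.18 and 0.92 on the log2 scale, edgeR adjusted p 0.699 and 0.0662). The Sox7 call was lost without replicate 1 or 3 of the wild type, without replicate 2 or 3 of the knockout label, and without replicate 1 of all ERF wild-type groups.

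Amot rose from 0.912, 1.23 and 1.93 CPM to 6.34, 6.42 and 6.71 CPM, with no overlap (2.26, SE 0.35, edgeR adjusted p 0.000105). Runx1 rose from 1.41, 1.00 and 0.963 CPM to 3.69, 5.13 and 7.19 CPM (2.19, SE 0.28, edgeR adjusted p 3.06e-06). Galnt3, Mov10l1 and Rassf6 also rose, by 1.41, 1.37 and 1.25 on the log2 scale (edgeR adjusted p 0.000559, 0.000159 and 0.0242). Rassf6 was not called without replicate 2 or 3 of the wild type or replicate 1 of the knockout label. Of the 2 that fell, Hoxa10 went from 9.57, 5.71 and 5.78 CPM to 0.776, 1.14 and 1.03 CPM (-2.87, SE 0.31, edgeR adjusted p 4.26e-07). Spred3 went from 6.34, 6.94 and 7.04 CPM to 3.36, 2.85 and 3.42 CPM (-1.10, SE 0.21, edgeR adjusted p 0.000422).

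Among RAS-deleted libraries in 2iL, the ERF comparison used other libraries of both genotypes, whose same-numbered RAS-present and RAS-deleted libraries deviated together (correlations of 0.277 to 0.511), so the 2 ERF comparisons are not independent. It called 11 members, 9 higher and 2 lower, where 13% of genes were called (5.83% higher and 7.15% lower), and the median member was higher by 0.52 against -0.01 over all genes. Epha1 was again highest, going from 2 counts in each library, under the floor of 3, to 52, 73 and 56 counts (edgeR adjusted p 6.48e-11). The ratio of its summed counts per library size was 34.4, with an exact 95% interval of 15.5 to 94.95 for counting error only, and its fitted fold (5.07 on the log2 scale) depends on the prior count. Nt5e went from 1.05, 0.603 and 0.823 CPM to 9.26, 7.55 and 13.9 CPM (3.67, SE 0.26, edgeR adjusted p 4.39e-10). Hoxa10 fell from 7.55, 4.96 and 4.24 CPM to 0.815, 0.565 and 0.761 CPM (-2.92, SE 0.34, edgeR adjusted p 5.79e-07). Both comparisons called 7 members higher: Arhgef5, Epha1, Galnt3, Mov10l1, Nt5e, Rassf6 and Runx1. This is 7 of 11, with Sox7 counted in the 11, and 7 of 9. Both called 2 lower (Hoxa10 and Spred3), which is all of the falls in each. Over all genes, 581 were called higher in both, 54.8% of the 1060 called with RAS present and 48.9% of the 1188 called with RAS deleted. Those called lower in both were 707, or 76.8% of 920 and 48.6% of 1456. Rassf6 was again lost, here without replicate 2 of the wild type or replicate 1 or 3 of the knockout label.

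Cldn7 and B4galnt2 were called here and not with RAS present. Cldn7 rose from 4.06, 1.07 and 2.60 CPM to 11.7, 10.0 and 10.1 CPM (2.09, SE 0.41, edgeR adjusted p 0.000496), and B4galnt2 from 2.94, 1.47 and 2.15 CPM to 6.07, 7.06 and 7.36 CPM (1.68, SE 0.42, edgeR adjusted p 0.00302). Their interaction terms were 1.71 and 1.46 on the log2 scale and did not pass (edgeR adjusted p 0.122 and 0.181), so a difference between the RAS states was not shown. Amot, Dab2 and Foxq1 were called only with RAS present, as was Sox7 with the limit given above. Of these, Dab2 alone passed the interaction test (-2.07, SE 0.46, edgeR adjusted p 0.0309), which called 0.378% of all genes (0.162% higher and 0.216% lower), and Amot did not (-1.50, edgeR adjusted p 0.141). The Dab2 interaction was lost in 10 of 19 alternatives: without any 1 of 9 of the 12 libraries in 2iL, and without replicate 1 of the ERF wild-type groups. Fitting only these groups with the replicate number as a block called 2 members, both lower and Dab2 among them, and 154 of 17639 genes. Without the block that fit called 1 member and 110 genes.

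**Figure D4:**
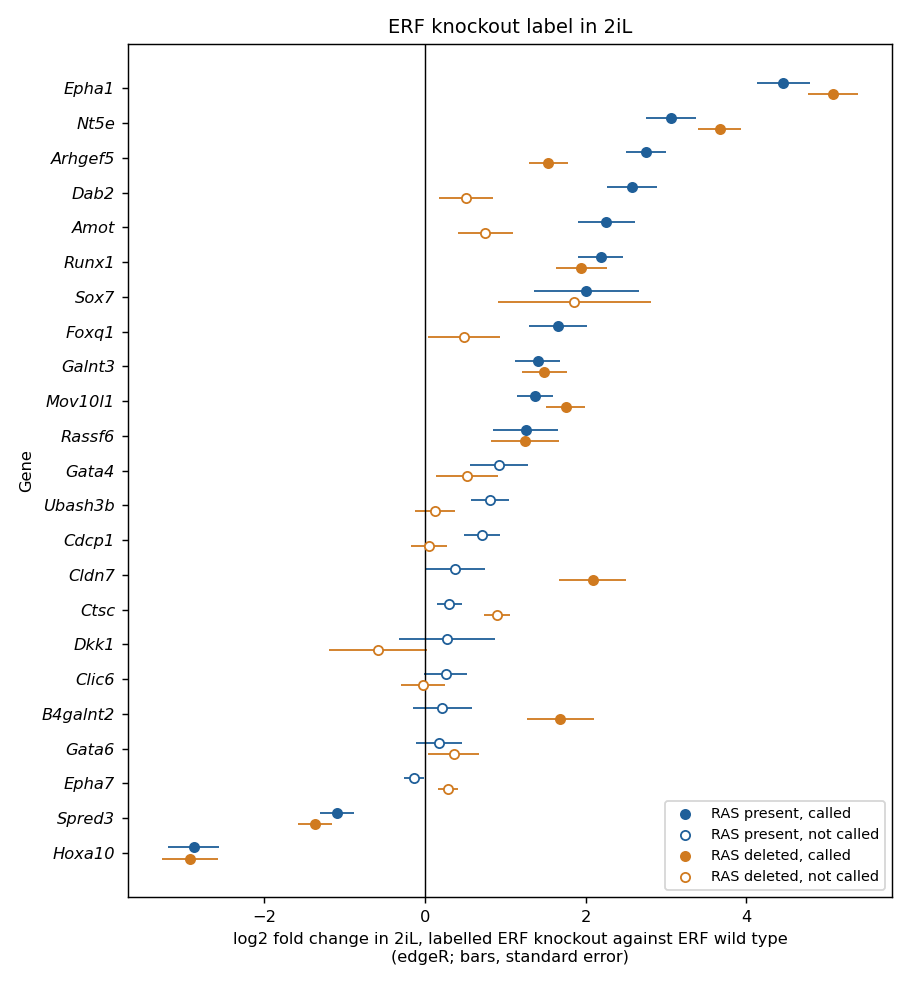
Log2 fold change in 2iL of the ERF knockout label against ERF wild type for 23 members, with RAS present (blue) and RAS deleted (orange); bars are standard errors, filled points passed the threshold and open points did not. Lhx1 and 2610528J11Rik, with at most 3 counts in every library of a compared pair of groups, are left out. Epha1 and Nt5e lie farthest right and Hoxa10 farthest left in both. Sox7 is filled with RAS present, but its call is not read as a rise.

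The list of ERK response genes that are no members (38 tested of 42 listed, made up of the families set aside by name and 13 others) shows what the same deletion did to the pathway's known outputs in FA. With ERF wild type 15 of 38 were called, 12 lower and 3 higher, where 17.3% of all genes were called (8.33% lower and 8.93% higher). With the knockout label 11 of 38 were called, 10 lower and 1 higher, where 6.88% were (4.06% lower and 2.81% higher). These counts hold Dusp4, Dusp6, Egr1, Etv4 and Spry4, which passed both thresholds of the rule in the same libraries and had to be lower. Their values are descriptions: Dusp4, a nuclear phosphatase of ERK, differed by -3.63 and -3.41, Dusp6, its cytoplasmic counterpart, by -2.89 and -2.22, and Egr1, an immediate early factor, by -2.82 and -3.33. Of the 33 genes left, 10 were called with ERF wild type (7 lower and 3 higher) and 6 with the knockout label (5 lower and 1 higher). Myc fell by 3.93 with ERF wild type and by 1.04 with the knockout label. Spred1, a relative of the member Spred3, and Il17rd, an FGF antagonist, were called with ERF wild type (-2.94 and -3.30) and not with the knockout label (-0.86 and 0.19, edgeR adjusted p 1.41e-07 and 0.126). Spred1 there missed only the 2-fold minimum, and the difference between the ERF genotypes in FA was not tested. Ccnd1, a cyclin of the G1 phase, was called higher in both (1.10 and 1.16). The largest edgeR adjusted p of the calls named was 0.0286 for Myc with the knockout label.

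Some members are neighbours in the genome, by the GENCODE annotation of GRCm38. Clic6 (chr16:92485736-92541243) and Runx1 (chr16:92601466-92826149) are 60.2 kb apart. Gata4 (chr14:63198922-63271692) and Sox7 (chr14:63943673-63950732) are 672.0 kb apart. Epha1 (chr6:42358487-42373268) and Arhgef5 (chr6:43265582-43289320), both higher with the ERF knockout label in 2iL, are 892.3 kb apart. Runx1 was called with the ERF label in 2iL in both RAS states, while its neighbour Clic6 changed by 0.26 and -0.02 on the log2 scale (edgeR adjusted p 0.519 and 0.961).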

How the data were processed

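RNA was sequenced from 23 libraries (rRNA-depleted, strand-specific, 75 bp read pairs) in 8 groups taken from the labels. Per the submitters' processing notes, bcl2fastq 2.20.0, fastp 0.20.0, Salmon and the build mm10 were used; the Salmon version is not given in the sources used here. Per the file headers, the authors deposited estimated counts and TPM per gene symbol for each library, and a count matrix whose cells equal the rounded estimated counts (0 differ). Salmon divides reads among similar transcripts, so counts of close paralogs are less certain.

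Estimated counts were rounded. CPM are counts over the column sum without Gm26917, a predicted gene with 17.6 to 27.9% of each library. The members and gene lists were chosen with earlier results of these data known. The robust quasi-likelihood test of edgeR 4.0.16 (R 4.3.3, TMM, filterByExpr) was fitted once over all groups and libraries (20372 of 53607 rows tested), and SE is the absolute log2 fold change over the square root of F. Calls needed a 2-fold change and an adjusted p (Benjamini-Hochberg) below 0.05. The edgeR step was tested on simulated data. DESeq2 1.42.0 was an alternative, as were other scalings, filters, thresholds, fits of the groups compared alone, the replicate block and leaving out each library; leaving out replicate 1 of the ERF wild-type groups was chosen after seeing the data.

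Members were named by a rule: 20 by the size of the smaller RAS difference, and the others as called in 2iL, next to the threshold or at an extreme. Members were part of the fit over all genes in FA, but their p-values there are not used, since the rule used those libraries. The floor was 3 counts in each library of a group. Replicate numbers pair the RAS-present and RAS-deleted libraries in 2iL, from the data and not from the labels: deviations of same-numbered libraries correlated at 0.337 to 0.511 with ERF wild type and at 0.277 to 0.486 with the knockout label, over 3 pairs each and 11601 genes. Values of 1 member and of 1 more targeted gene are not reported here.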

Additional observations from a re-analysis of the deposited data

Results flagged for a closer look

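Dab2, the endocytic adaptor of visceral endoderm, was flagged because RAS deletion in 2iL acted on it differently in the 2 ERF genotypes by the interaction test. The difference was -2.07 on the log2 scale (SE 0.46, edgeR adjusted p 0.0309). RAS deletion changed Dab2 by 0.55 with ERF wild type (edgeR adjusted p 0.397) and by -1.51 with the knockout label (edgeR adjusted p 0.0164). The 3 RAS-present libraries of the knockout label ranged from 10.2 to 27.3 CPM, and the 6 endoderm markers that are no members summed to 21.5 to 56.0 CPM in them and to 8.89 to 14.8 CPM in the RAS-deleted ones; their part in the difference was not tested. The value ran from -2.36 to -1.60 over 19 alternatives, of which 9 kept the call.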

How the results depend on the processing

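Of the settings that were varied for counts, 153 values stayed within 1.5 times of the main one and 59 did not; for single genes, 350 values kept the call, 31 lost it and 0 reversed. Without a fold minimum, RAS deletion in 2iL called 1161 genes with ERF wild type and 266 with the knockout label, the ERF label 5668 with RAS and 7975 without, the interaction 320, and RAS deletion in FA 8420 and 5369; the ERK response list then gave 25 and 23 calls. Without the low-count filter, RAS deletion in 2iL called 559 and 240 genes, and the interaction 457 genes and 4 members. DESeq2 called 85 genes for RAS deletion in 2iL with the knockout label and 141 genes and 3 members for the interaction. Fitting only the groups compared gave 75 genes for RAS deletion with the knockout label, and 1 member with ERF wild type. Without replicate 1 of the ERF wild-type groups, RAS deletion called 104 and 127 genes, and the interaction 2 members.

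The replicate block, which fits the pairing of RAS-present and RAS-deleted libraries, was run on only the groups compared. It gave 207 genes for RAS deletion with the knockout label, 360 with ERF wild type, and 154 genes and 2 members for the interaction, where the same groups without the block gave 75, 239 and 110 genes. In the other comparisons checked, between ERF genotypes in 2iL and between RAS states in FA, the numbers did not meet the limit of 0.1, although each of the 3 pairs in FA under the knockout label correlated best with its own number. Pairing across media was not checked.

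The rule is sensitive to its scale: it took 115 genes with a pseudocount of 0.1, 5 with 5, 124 with a difference of at least 1, 8 with at least 2, 12 between the nearest libraries of the groups, and 16 on TPM, of which 7 were among the 26. Leaving out 1 library gave 23 to 32 members. For RAS deletion in 2iL it gave 70 to 305 genes and 0 to 2 members with ERF wild type, and 17 to 40 genes and 1 to 3 members with the knockout label. For the ERF label it gave 1638 to 1991 genes and 11 to 14 members with RAS, and 2305 to 2620 genes and 10 to 12 members without. It gave 26 to 159 genes and 0 to 1 members for the interaction, 3099 to 3572 and 1044 to 1435 genes for RAS deletion in FA, and 14 to 16 and 8 to 10 calls on the ERK response list. Members under 1 CPM in 2iL rest on few reads in a library, which limits what a test there can show.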
